A study of Homo sapiens with 15 samples.

Results

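Host genes are genes whose transcripts carry small RNAs that are released during RNA processing. The set described here was taken by name from 2 gene count tables. It holds every row named SNHG and a number, or MIR followed by letters or digits and ending in HG, together with GAS5, provided that the row had at least 10 raw counts summed over the libraries of its table. The rule found 73 genes, of which 28 were snoRNA hosts and 45 were microRNA hosts. The table of the IMR90 cells held 59 of them among 59428 rows, and the table of the Huh7 cells held 65 among 59412 rows, with 51 in both. Names of this form occurred in 93 rows of the IMR90 table and 86 rows of the Huh7 table, and the others were under the count threshold. Just inside it lay MIR302CHG with 13 counts in IMR90 cells and SNHG14 with 10 counts in Huh7 cells. Just outside it lay MIR3945HG with 8 counts in IMR90 cells and MIR4307HG and MIR646HG with 9 counts each in Huh7 cells. The members were selected on their names and summed counts and on no difference between groups, and host genes whose symbols contain a hyphen were not matched by it.

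The series asked whether thrombomodulin, the cell surface thrombin receptor encoded by THBD, is needed for senescence to be established. IMR90 is a human lung fibroblast line, and all 9 of its libraries came from cells made senescent with HRAS G12V. They comprised 3 libraries labelled shTHBD2x and 3 labelled shTHBD1x, where x stands for the replicate number, both carrying a short hairpin RNA against THBD, and 3 labelled shNTC1, carrying a non-targeting hairpin. Huh7 is a hepatocyte-derived carcinoma line, and all 6 of its libraries came from cells made senescent with palbociclib, an inhibitor of the cell cycle kinases CDK4 and CDK6. They comprised 3 libraries labelled Palbo53925, infected with a hairpin against THBD, and 3 labelled PalboNTC, infected with a non-targeting hairpin. The description of shTHBD2x replicate 3 names Huh7 while its other labels say IMR-90, and it was used as IMR90. No proliferating cells without HRAS G12V or palbociclib were analysed here. The labels do not say what the set numbers stand for or whether the 3 libraries of a group came from separate cultures, so p-values measure the spread between libraries, which may be technical.

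THBD averaged 11.1 ± 0.556 CPM (counts scaled to the library's total) in shTHBD2x libraries and 18.4 ± 1.77 CPM in shNTC1 libraries (SD, n = 3 each), which fits the label. In the libraries labelled shTHBD1x it averaged 37.8 ± 1.46 CPM, above the controls, which goes against the label. In Huh7 cells it had 0 counts in each Palbo53925 library, against 0, 0 and 6 counts in PalboNTC libraries, so the knockdown could not be checked there. Total counts were 18256773 to 21509229 in IMR90 libraries, 22479132 to 25236178 in Palbo53925 libraries and 19328182 to 20020683 in PalboNTC libraries. Fibroblast markers summed to 11793 CPM or more in every IMR90 library, and the 15 hepatocyte markers summed to 7894 CPM or more in every Huh7 library. Replicate 3 of Palbo53925 stood apart, with 9.94% mitochondrial counts against 7.26% to 8.35% in the other 5 Huh7 libraries, and values without it are given where they bear on a result.

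Most box C/D and box H/ACA snoRNAs of mammals are cut from introns after splicing, and they guide the methylation and pseudouridylation of ribosomal RNA. The spliced RNA of a noncoding snoRNA host often carries a terminal oligopyrimidine start, a run of C and T letters shared with ribosomal protein genes, and is commonly removed by nonsense-mediated decay when it is translated. MicroRNA hosts are primary transcripts from which Drosha cuts hairpins, and Dicer then cuts the microRNAs from these. Each microRNA finds its targets through its seed, the bases 2 to 8 from its 5′ end. RNA counted over host exons is thus the precursor or its by-product, and not the mature small RNA.

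The mature microRNAs carried by the hosts whose values are described most closely are given here to make clear which hosts deliver the same seed. Sequences are from RefSeq on GRCh38.p14, written 5′ to 3′ with the seed in capitals. Of 79 microRNA genes inside the members, 76 had a mature sequence there.
hsa-miR-503-5p: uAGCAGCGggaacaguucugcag
hsa-miR-221-3p: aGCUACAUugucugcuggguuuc
hsa-miR-222-3p: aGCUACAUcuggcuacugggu
hsa-miR-100-5p: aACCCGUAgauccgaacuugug
hsa-miR-99a-5p: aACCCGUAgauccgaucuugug
hsa-miR-125b-5p: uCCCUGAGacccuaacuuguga
hsa-let-7a-5p: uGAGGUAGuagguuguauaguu
hsa-let-7c-5p: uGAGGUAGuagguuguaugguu
hsa-let-7b-5p: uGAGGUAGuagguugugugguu
hsa-miR-137-3p: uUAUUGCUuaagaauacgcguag
hsa-miR-31-5p: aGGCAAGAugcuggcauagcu
hsa-miR-210-3p: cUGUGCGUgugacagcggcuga
hsa-miR-146a-5p: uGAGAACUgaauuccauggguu
hsa-miR-122-5p: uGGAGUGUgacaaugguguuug
hsa-miR-22-3p: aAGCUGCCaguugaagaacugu
hsa-miR-34a-5p: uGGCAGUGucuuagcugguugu

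MIR100HG (chr11:122028325-122556721, minus strand) and MIR99AHG (chr21:15928296-16645467, plus strand) are paralogous clusters. Both deliver the seeds of miR-100 and miR-99a, of miR-125b and of let-7. The let-7 seed was the most widely shared, with 7 mature microRNAs in 6 member hosts, which also include MIRLET7A1HG, MIRLET7BHG, MIR4458HG and MIR4500HG. MIR222HG (chrX:45745211-45770274, minus strand) carries miR-221 and miR-222 under a common seed. In both tables the hairpins of MIR100, MIR221, MIR222, MIR31 and MIR210 lay in introns of their hosts, outside every annotated exon. Those of MIR34A, MIR137, MIR146A and MIR22 lay in bases that are exon in some annotated transcript, and these can be intron in another.

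The 5′ ends of 24 snoRNA hosts and 37 microRNA hosts were listed by RefSeq. A run of at least 5 pyrimidines opening with C began at the listed start in 6 of the 24 snoRNA hosts (25%), in 1 of the 37 microRNA hosts (2.7%) and in 1104 of 27305 genes (4.04%). The 6 starts are shown because such a start is often described for noncoding snoRNA hosts, although most of the 24 had no such run at the listed base. The run is in capitals after the 20 bases that precede the start.
SNHG12: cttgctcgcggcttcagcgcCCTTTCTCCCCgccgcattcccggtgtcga
SNHG18: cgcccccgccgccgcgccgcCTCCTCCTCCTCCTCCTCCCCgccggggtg
SNHG4: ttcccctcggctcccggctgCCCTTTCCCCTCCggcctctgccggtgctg
SNHG32: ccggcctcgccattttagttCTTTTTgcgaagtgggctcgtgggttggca
SNHG5: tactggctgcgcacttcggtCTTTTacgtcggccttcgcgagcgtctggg
SNHG19: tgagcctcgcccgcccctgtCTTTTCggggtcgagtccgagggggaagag
Their positions on GRCh38.p14 are chr1:28581844-28581893 for SNHG12, chr5:9546180-9546229 for SNHG18, chr5:139274081-139274130 for SNHG4, chr6:31834896-31834945 for SNHG32, chr6:85678704-85678753 for SNHG5 and chr16:2155329-2155378 for SNHG19. No match says only that the listed base opens no such run, since a start a few bases away would be missed.

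Per kilobase of exon, the most abundant members were mostly snoRNA hosts in both lines. In shNTC1 libraries of IMR90 cells SNHG19 led with 32 ± 1.82 CPM per kb, followed by SNHG32 with 27.9 ± 1.59, MIR31HG with 27.7 ± 1.3, GAS5 with 21.3 ± 0.276 and SNHG29 with 19.6 ± 1.2 (SD, n = 3). SNHG32 and MIR31HG did not differ beyond their spread. SNHG19 led on an exon length of only 342 bases. By CPM alone it averaged 11 in these libraries, against 143 for MIR34AHG, 140 for SNHG29 and 103 for GAS5. Exon lengths take in all annotated transcripts of a gene, so the order depends on the annotation as well as on the counts. In PalboNTC libraries of Huh7 cells SNHG6 led with 31.9 ± 1.42 CPM per kb, followed by SNHG32 with 24.1 ± 5.72, SNHG29 with 20.9 ± 1.23, SNHG1 with 15.8 ± 1.23 and GAS5 with 15.1 ± 1.33. SNHG32 and SNHG29 overlapped there, as did SNHG1 and GAS5. Some hosts differed widely between the lines. SNHG14 had 0.51 CPM per kb in IMR90 and 4.2e-04 in Huh7 control libraries, where it rested on 3 counts in 1 library. MIR31HG, which other work ties to the repression of CDKN2A, had 27.7 CPM per kb in IMR90 and 0.109 in Huh7 control libraries. MIR100HG had 2.8 and 0.0254 CPM per kb, and MIR34AHG, a p53 target, had 16.5 and 0.551 CPM per kb in the same order of lines. MIR99AHG and MIR1915HG went the other way, with 0.00938 and 0.292 CPM per kb in IMR90 against 0.157 and 3.33 CPM per kb in Huh7 control libraries. The line, the inducer of senescence and the count table cannot be told apart in these levels, and the exon length used for MIR31HG was 2816 bases in one table and 9342 in the other.

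**Figure D1:**
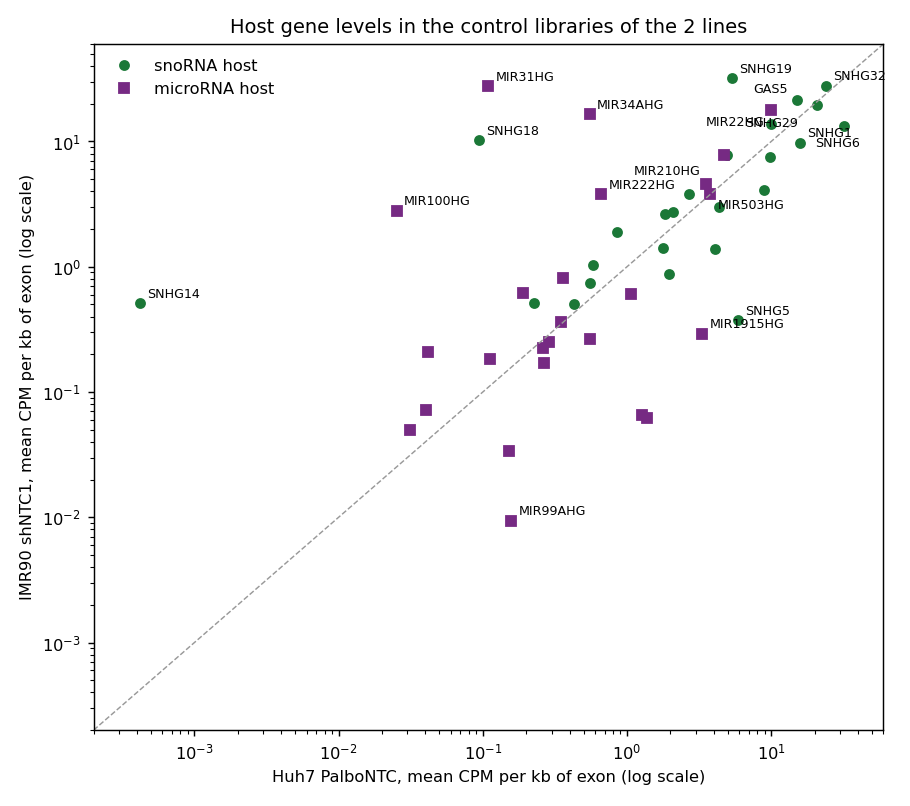
Mean level per kilobase of exon of the 50 host genes that had counts in the control libraries of both lines, with Huh7 PalboNTC on the horizontal and IMR90 shNTC1 on the vertical axis, both logarithmic. The dashed line marks equal levels: GAS5, SNHG29 and SNHG32 lie near it at the top, and MIR31HG, MIR34AHG, MIR100HG, SNHG18 and SNHG14 lie far above it.

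The summed levels of the 2 classes lay on opposite sides of the control in IMR90 cells. The 25 snoRNA hosts summed to 627, 620 and 657 CPM in shTHBD2x libraries and to 633, 645 and 638 CPM in the libraries labelled shTHBD1x, against 709, 691 and 696 CPM in shNTC1 libraries. The sums of both hairpin groups lay below all 3 controls. The 34 microRNA hosts summed to 594, 620 and 601 CPM in shTHBD2x libraries and to 480, 483 and 477 CPM in the libraries labelled shTHBD1x, against 458, 459 and 445 CPM in shNTC1 libraries. Here both groups lay above the controls. In shTHBD2x libraries the higher sum rested largely on MIR100HG (mean 149 against 80.1 CPM), MIR503HG (58.3 against 11.3 CPM) and MIR31HG (108 against 78 CPM). Of the 27 microRNA hosts tested there, 10 were called higher, 4 lower and 13 not. In the libraries labelled shTHBD1x it rested largely on MIR34AHG, with 171 ± 7.54 CPM against 143 ± 3.11 CPM in shNTC1 libraries (SD, n = 3 each). The median log2 fold change over the 27 microRNA hosts tested was -0.06 in these libraries. In Huh7 cells the 28 snoRNA hosts summed to 574, 598 and 473 CPM in Palbo53925 libraries, against 616, 679 and 706 CPM in PalboNTC libraries, and the 37 microRNA hosts summed to 134, 142 and 108 CPM in Palbo53925 libraries, against 144, 140 and 145 CPM in PalboNTC libraries. Both lowest sums were those of Palbo53925 replicate 3, and the microRNA host sums overlapped with or without that library. With 3 libraries against 3, an exact test of such a sum cannot reach 0.05, so none is given. In bulk RNA, fewer cells with a transcript and less transcript per cell cannot be told apart.

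**Figure D2:**
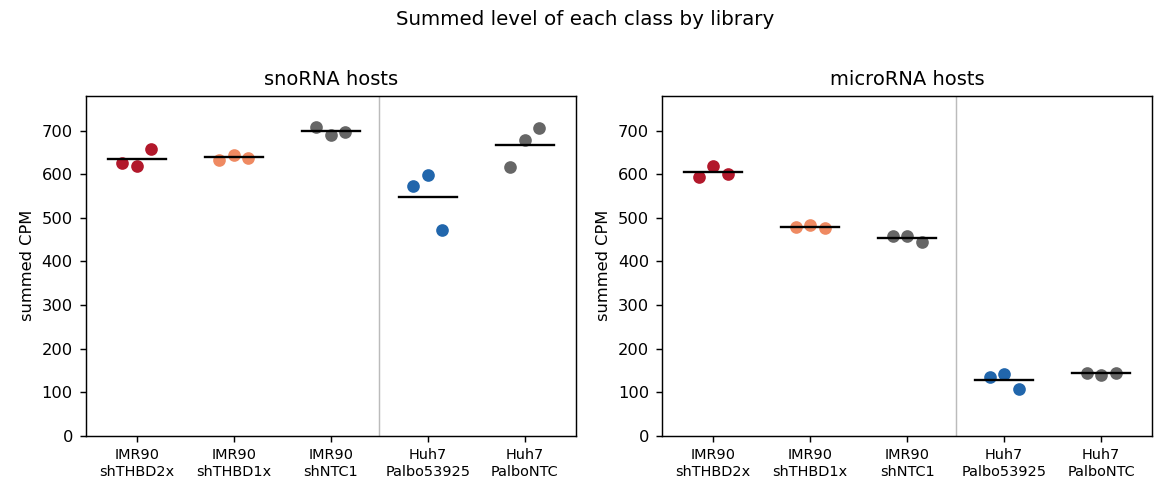
Summed CPM of all snoRNA hosts and of all microRNA hosts in each library, with points for libraries and bars for group means. In IMR90 cells the snoRNA host sums were 620 to 657 CPM in shTHBD2x and 691 to 709 CPM in shNTC1 libraries, and the microRNA host sums were 594 to 620 CPM in shTHBD2x and 445 to 459 CPM in shNTC1 libraries.

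Genes were tested with edgeR's quasi-likelihood test on all genes of a table that passed the filter on low counts, and a gene was called where its p-value, adjusted by Benjamini-Hochberg over all of them, was under 0.05. In shTHBD2x against shNTC1 libraries 51 of the 59 members passed the filter on low counts and 8 did not, 18 were called higher and 14 lower, or 62.7%. For 33 members, and for 70% of all genes, the libraries of the groups did not overlap. The background was large: 67.3% of all 15411 genes tested were called, 33.2% higher and 34.1% lower, so the share of members called was near that of genes at large. The median log2 fold change was -0.18 over the 24 snoRNA hosts tested and 0.15 over the 27 microRNA hosts tested, against 0.01 over all genes. Of the snoRNA hosts 8 were higher and 10 lower, and of the microRNA hosts 10 were higher and 4 lower. Mitochondrial counts were 6.38% to 6.58% in shTHBD2x and 5.43% to 5.48% in shNTC1 libraries, fibroblast markers summed to 16791 to 16991 against 16007 to 16017 CPM, and endothelial markers, mostly TIE1, to 105 to 113 against 171 to 178 CPM. The part of these in the host gene results was not tested.

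Several abundant snoRNA hosts fell in shTHBD2x libraries. GAS5 (chr1:173858559-173868882, minus strand), a growth arrest RNA that can bind the glucocorticoid receptor, had 58.3, 52.5 and 60.4 CPM in shTHBD2x libraries, against 102, 104 and 103 CPM in shNTC1 libraries. The groups stood well apart, with a log2 fold change of -0.94 (SE 0.0446, adjusted p = 4.3e-30). SNHG29 (chr17:16438767-16478678, plus strand), host of SNORD49A, SNORD49B and SNORD65, had 67.7, 66.4 and 70.1 CPM in shTHBD2x libraries, against 150, 135 and 136 CPM in shNTC1 libraries. It had the largest fall of the snoRNA hosts, to less than every control, at -1.13 (SE 0.0409, adjusted p = 5.1e-37). SNHG16 (chr17:76557764-76565348, plus strand), host of the SNORD1 trio, had 43.7, 45.2 and 43.2 CPM in shTHBD2x libraries, against 75.5, 70 and 76.8 CPM in shNTC1 libraries. Its log2 fold change was -0.84 (SE 0.0505, adjusted p = 2e-24). SNHG26, host of SNORD93, had 5.95, 7.53 and 7.02 CPM against 9.59, 12.1 and 12.2 CPM in shNTC1 libraries, again without overlap (-0.81, SE 0.127, adjusted p = 5.4e-08). Smaller falls were called for SNHG15 (-0.39), SNHG1 (-0.19) and SNHG8 (-0.18). The calls of SNHG1 and SNHG8 were lost with upper-quartile scaling (adjusted p = 0.0767 and 0.201), and SNHG8 also lost its call with DESeq2 (adjusted p = 0.0641) and without shNTC1 replicate 2 (adjusted p = 0.137) or shTHBD2x replicate 2 (adjusted p = 0.127).

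Other snoRNA hosts rose in the same libraries. SNHG18 (chr5:9546200-9550609, plus strand), host of SNORD123, had 33.3, 36.2 and 34 CPM in shTHBD2x libraries, against 19.3, 21.4 and 18.9 CPM in shNTC1 libraries. Every shTHBD2x library was above every control, with a log2 fold change of 0.72 (SE 0.078, adjusted p = 7.5e-13). SNHG14 (chr15:24978583-25420336, plus strand), the imprinted host of the SNORD115 and SNORD116 arrays, was singled out after its values were seen. It had 119, 123 and 117 CPM in shTHBD2x libraries, against 60.7, 64.9 and 62.2 CPM in shNTC1 libraries, a log2 fold change of 0.86 (SE 0.0426, adjusted p = 5e-29). Of its exon bases 11.5% are shared with other genes, among them UBE3A on the opposite strand. SNHG21, host of SCARNA15, rose by 1.21 (SE 0.305, adjusted p = 3.9e-04) from a low level, with 1.74, 2.93 and 3.38 CPM in shTHBD2x libraries, against 0.995, 0.91 and 1.35 CPM in shNTC1 libraries, and 72.9% of its exon bases are shared with other genes. SNHG11 rose by 0.61 (SE 0.165, adjusted p = 7.9e-04). SNHG32, host of SNORD48 and SNORD52, had 58.6, 56.1 and 69.3 CPM in shTHBD2x libraries, against 50, 47.6 and 53.3 CPM in shNTC1 libraries. Its log2 fold change of 0.20 (adjusted p = 0.00206) rested on shTHBD2x replicate 3, and without that library it was 0.10 (adjusted p = 0.142). The 6 hosts with a pyrimidine run at the listed RefSeq start had log2 fold changes of 0.72 for SNHG18, 0.20 for SNHG32, -0.09 for SNHG5, -0.18 for SNHG12, -0.21 for SNHG19 and -0.49 for SNHG4. Of these SNHG5, SNHG12 and SNHG19 were not called. Starts of other hosts a few bases from the listed one would be missed.

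**Figure D3:**
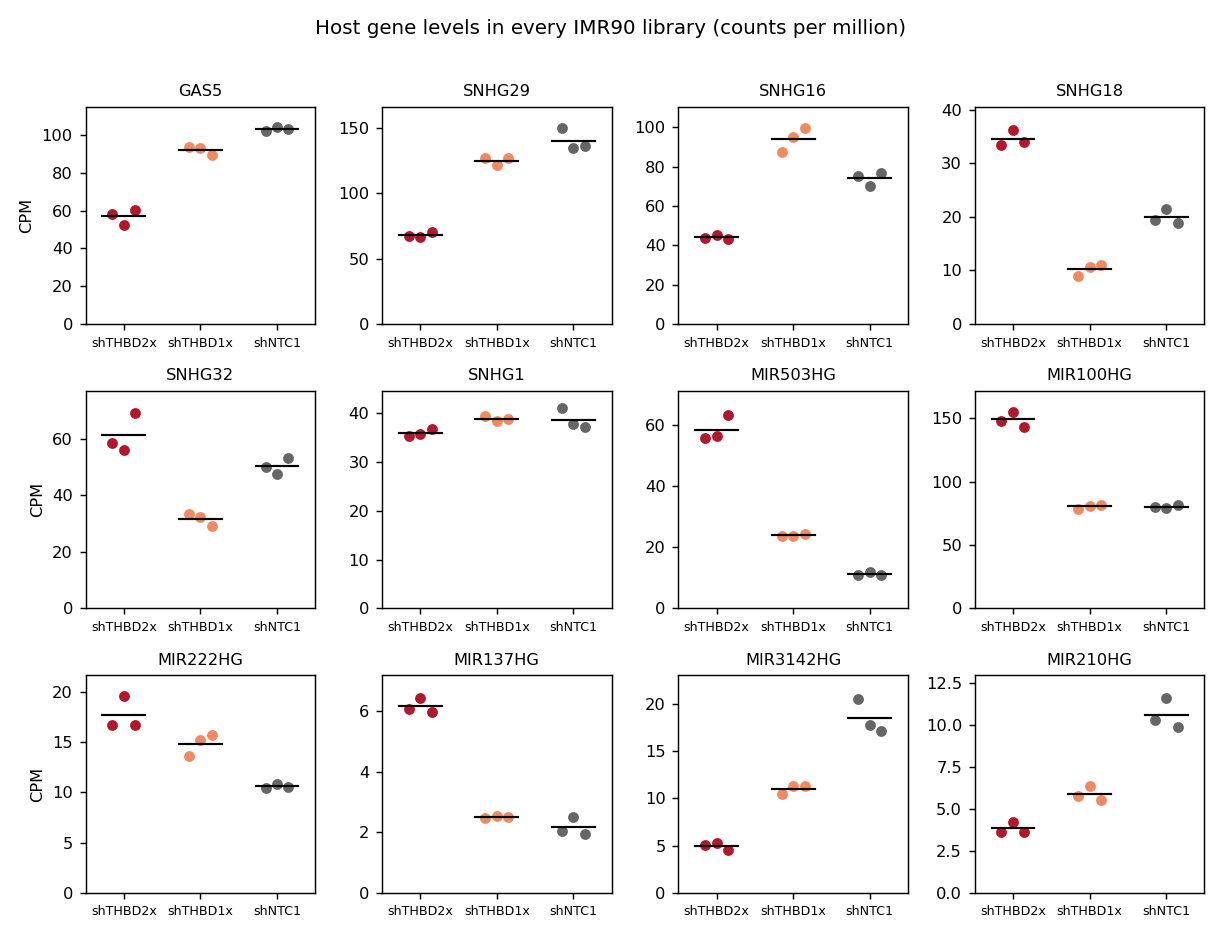
CPM of 12 host genes in each of the 9 IMR90 libraries, with points for libraries and bars for group means, each panel on its own axis from 0. GAS5, SNHG29 and SNHG16 had their lowest values in the shTHBD2x libraries, MIR503HG was lowest in shNTC1 libraries, and SNHG16, SNHG18 and SNHG32 moved to opposite sides of the control in the 2 hairpin groups.

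Among microRNA hosts the largest rise in shTHBD2x libraries at a level of at least 1 CPM was that of MIR503HG (chrX:134543119-134546642, minus strand), host of miR-503, a microRNA known to restrain cyclin D1 and other cell cycle genes. It had 55.7, 56.2 and 63.1 CPM in shTHBD2x libraries, against 10.9, 12 and 11 CPM in shNTC1 libraries. The lowest shTHBD2x library was several times the highest control, with a log2 fold change of 2.28 (SE 0.0743, adjusted p = 8.3e-40). MIR1915HG had 4.06, 5.49 and 4.3 CPM in shTHBD2x libraries, against 1.2, 1.34 and 0.79 CPM in shNTC1 libraries (1.98, SE 0.255, adjusted p = 2.2e-10). MIR137HG, host of the neuronal microRNA miR-137, had 6.06, 6.43 and 5.99 CPM in shTHBD2x libraries, against 2.04, 2.52 and 1.95 CPM in shNTC1 libraries (1.42, SE 0.187, adjusted p = 3.8e-10). Neither pair of groups overlapped.

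Of the hosts that share the miR-100, miR-125b or let-7 seeds, MIR100HG, MIR99AHG and MIRLET7A1HG rose in shTHBD2x libraries, at very different levels. MIR100HG had 148, 155 and 143 CPM in shTHBD2x libraries, against 80, 79.1 and 81.2 CPM in shNTC1 libraries (0.81, SE 0.039, adjusted p = 8.4e-30). MIR99AHG had only 1.21, 1.15 and 1.14 CPM in shTHBD2x libraries, against 0.314, 0.428 and 0.465 CPM in shNTC1 libraries (1.43, SE 0.441, adjusted p = 0.00322). Both were apart from their controls in every library. MIRLET7A1HG, host of let-7a, let-7f and let-7d, had 6.16, 5.96 and 6.26 CPM in shTHBD2x libraries, against 3.14, 1.93 and 2.37 CPM in shNTC1 libraries (1.22, SE 0.183, adjusted p = 1.9e-08). MIRLET7BHG, host of let-7b (-0.16, adjusted p = 0.715), and MIR4458HG (0.13, adjusted p = 0.596) were not called. MIR181A2HG rose by 1.46 (SE 0.422, adjusted p = 0.00171), with 1.32, 2.04 and 1.42 CPM in shTHBD2x libraries, against 0.995, 0.214 and 0.418 CPM in shNTC1 libraries.

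MIR222HG, host of the microRNAs that repress the cell cycle inhibitor CDKN1B, had 16.7, 19.6 and 16.7 CPM in shTHBD2x libraries, against 10.4, 10.8 and 10.5 CPM in shNTC1 libraries (0.66, SE 0.098, adjusted p = 1.4e-08). MIR31HG had 108, 108 and 109 CPM in shTHBD2x libraries, against 74.7, 81.9 and 77.2 CPM in shNTC1 libraries (0.39, SE 0.0409, adjusted p = 1.3e-13). Both groups of values were fully separate. MIR34AHG was not called although its groups did not overlap, with 149, 147 and 148 CPM in shTHBD2x libraries and 146, 144 and 140 CPM in shNTC1 libraries (-0.04, adjusted p = 0.323). The CPM are scaled to total counts and the fold change by TMM, and the 2 scalings differ in sign here. MIR22HG (-0.10, adjusted p = 0.119), MIR17HG (0.22, adjusted p = 0.614) and MIR155HG (-0.45, adjusted p = 0.224) were not called either. Leaving out 1 shTHBD2x library brought a call for MIR155HG (without replicate 3, -0.91, adjusted p = 0.0308) and for MIR22HG (without replicate 2, -0.18, adjusted p = 0.00613). MIR3659HG, named after its values were seen since it stayed under 1 CPM on average, had 19, 13 and 15 counts in shTHBD2x libraries, against 0, 0 and 4 counts in shNTC1 libraries.

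The microRNA hosts that fell in shTHBD2x libraries were led by MIR3142HG (chr5:160438594-160487426, plus strand), which carries miR-146a, a microRNA known to damp NF-κB signalling through IRAK1 and TRAF6. It had 5.06, 5.23 and 4.57 CPM in shTHBD2x libraries, against 20.5, 17.8 and 17.1 CPM in shNTC1 libraries. The log2 fold change was -1.98 (SE 0.114, adjusted p = 1.9e-25). MIR210HG (chr11:565660-568457, minus strand), host of the hypoxia-induced miR-210, had 3.63, 4.23 and 3.65 CPM in shTHBD2x libraries, against 10.3, 11.6 and 9.9 CPM in shNTC1 libraries (-1.55, SE 0.139, adjusted p = 3.3e-16). Every shTHBD2x library of both hosts lay below every control. MIR4280HG fell by 1.14 on the log2 scale (SE 0.298, adjusted p = 5.7e-04) at about 1 to 3 CPM. MIR29B2CHG, host of miR-29c and miR-29b-2, was called lower at -0.87 (adjusted p = 0.0409), a call lost under 8 alternatives that included the leaving out of each shTHBD2x library, with adjusted p-values of 0.0551 to 0.13.

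The promoters of MIR503HG, the host with the largest rise above 1 CPM, and of MIR210HG, a host known to respond to hypoxia, are shown from 250 bases before to 50 bases after the RefSeq start, with a motif match in capitals. Searched on both strands were ACGTG, the core of the hypoxia response element, CACGTG, the E-box, which contains it, and TGACTCA, the AP-1 site.
MIR503HG: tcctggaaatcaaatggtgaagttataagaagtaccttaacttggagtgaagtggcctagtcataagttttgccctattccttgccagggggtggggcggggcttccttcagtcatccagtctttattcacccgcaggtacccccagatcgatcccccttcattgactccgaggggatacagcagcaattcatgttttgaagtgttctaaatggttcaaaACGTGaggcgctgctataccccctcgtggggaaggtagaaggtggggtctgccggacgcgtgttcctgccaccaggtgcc
MIR210HG: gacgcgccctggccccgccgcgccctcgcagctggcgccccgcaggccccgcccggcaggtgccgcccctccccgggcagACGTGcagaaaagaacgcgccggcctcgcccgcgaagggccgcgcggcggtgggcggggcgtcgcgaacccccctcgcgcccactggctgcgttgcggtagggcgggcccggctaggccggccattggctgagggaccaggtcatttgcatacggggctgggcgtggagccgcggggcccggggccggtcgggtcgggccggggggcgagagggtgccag
They lie at chrX:134546581-134546880 and chr11:568408-568707 on GRCh38.p14, both on the minus strand. The core ACGTG stood 30 bases before the start of MIR503HG and 170 bases before that of MIR210HG. It was found in 13 of 37 microRNA host promoters (35.1%), 4 of 24 snoRNA host promoters (16.7%) and 21.6% of all 27305. CACGTG was found in 3 member promoters, those of SNHG7, SNHG30 and MIR3659HG, and in 7.43% of all. TGACTCA was found in those of MIR155HG and MIR181A1HG and in 4.92% of all. A match describes these letters and is no measure of binding.

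In the libraries labelled shTHBD1x against shNTC1, 9 of the 51 members tested were called higher and 13 lower, or 43.1%, where 53.8% of all genes tested were called, 27.3% higher and 26.5% lower. The groups did not overlap for 26 members and for 59.4% of all genes. Both IMR90 comparisons share the shNTC1 libraries, so their values are only set side by side. MIR503HG had 23.7, 23.6 and 24.3 CPM in the libraries labelled shTHBD1x, against 10.9, 12 and 11 CPM in shNTC1 libraries, a log2 fold change of 1.13 (SE 0.082, adjusted p = 5.8e-20) beside the 2.28 of shTHBD2x. MIR222HG rose by 0.54 (SE 0.0997, adjusted p = 3.2e-06) and MIR34AHG by 0.31 (SE 0.0337, adjusted p = 1.1e-12), the second with 180, 169 and 165 CPM in the libraries labelled shTHBD1x, all above the controls. MIR3142HG had 10.5, 11.3 and 11.3 CPM (-0.68, SE 0.1, adjusted p = 1.7e-08) and MIR210HG 5.75, 6.35 and 5.53 CPM (-0.79, SE 0.129, adjusted p = 2.2e-07) in the libraries labelled shTHBD1x, below every control given above. MIR22HG fell by 0.31 on the log2 scale (SE 0.0579, adjusted p = 5.5e-06). Of the let-7 hosts MIRLET7A1HG was called higher (0.48, adjusted p = 0.0335) and MIRLET7BHG lower (-0.98, adjusted p = 0.0298), but each lost its call without at least 3 of the 6 libraries left out in turn. MIR100HG was not called (0.06, adjusted p = 0.204), with 78.7, 81 and 81.9 CPM in the libraries labelled shTHBD1x, and its values overlapped those of the controls.

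Several snoRNA hosts stood on the other side of the control in the libraries labelled shTHBD1x. SNHG16 had 87.7, 95.3 and 99.6 CPM there, above the 70 to 76.8 CPM of shNTC1 libraries (0.40, SE 0.0458, adjusted p = 8e-12). SNHG18 had 8.93, 10.6 and 11 CPM, below the 18.9 to 21.4 CPM of shNTC1 libraries (-0.90, SE 0.0917, adjusted p = 1.2e-13). SNHG32 had 33.6, 32.5 and 29.2 CPM, below the 47.6 to 53.3 CPM of shNTC1 libraries (-0.61, SE 0.0638, adjusted p = 3.5e-13). SNHG26 fell by 0.95 (SE 0.13, adjusted p = 2.9e-09) and SNHG8 by 0.67 (SE 0.0828, adjusted p = 1.3e-10) on the log2 scale, while SNHG11 fell by 0.52 (adjusted p = 0.0152) and lost its call without shNTC1 replicate 1 (adjusted p = 0.123). GAS5 and SNHG29 were each called lower by only 0.11 on the log2 scale (-0.11 for both, adjusted p = 0.0254 and 0.0113). GAS5 lost its call with DESeq2 (adjusted p = 0.087) and without shNTC1 replicate 2 or 3 or shTHBD1x replicate 3 (adjusted p = 0.0551 to 0.125), and SNHG29 lost it with DESeq2 (adjusted p = 0.056) and without shNTC1 replicate 1 (adjusted p = 0.223) or shTHBD1x replicate 2 (adjusted p = 0.0771). In these libraries 11 of 13 fibroblast markers tested were lower, their sum was 11793 to 11954 CPM against 16007 to 16017 CPM in shNTC1 libraries, and none of the 14 was at 0. Mitochondrial counts were 5.82% to 5.98% against 5.43% to 5.48%, endothelial markers, mostly TIE1, summed to 350 to 353 against 171 to 178 CPM, and hepatocyte markers, mostly SERPINA1, to 132 to 142 against 15.9 to 17.9 CPM. The part of these in the host gene results was not tested.

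The direct comparison of the libraries labelled shTHBD1x with shTHBD2x does not use the controls. It called 14 of 51 members higher and 21 lower, or 68.6%, where 69.5% of all genes were called, 33.9% higher and 35.6% lower. The groups did not overlap for 41 members and for 72.3% of all genes. The higher ones included both kinds of host. MIR3142HG was 1.29 higher (SE 0.122, adjusted p = 2.8e-15), SNHG16 1.24 higher (SE 0.0493, adjusted p = 1.2e-34), SNHG29 1.02 higher (SE 0.0413, adjusted p = 3.6e-34) and GAS5 0.83 higher (SE 0.0452, adjusted p = 6.6e-27) on the log2 scale, with no overlap of libraries in any of them. The lower ones above 1 CPM included MIR181A2HG (-2.22, SE 0.467), SNHG21 (-2.06, SE 0.34), MIR1915HG (-1.98, SE 0.257), SNHG18 (-1.62, SE 0.0863), MIR99AHG (-1.49, SE 0.448), MIR137HG (-1.16, SE 0.183) and MIR503HG (-1.15, SE 0.0663). MIR222HG (-0.11, adjusted p = 0.274) and SNHG26 (-0.14, adjusted p = 0.387) were not called between the 2 sets, but MIR222HG passed with upper-quartile scaling (-0.21, adjusted p = 0.0367). MIR646HG had 2.57, 2.2 and 3.23 CPM in the libraries labelled shTHBD1x, against 1.26, 1.99 and 1.52 CPM in shTHBD2x libraries (0.88, SE 0.263, adjusted p = 0.00231).

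**Figure D4:**
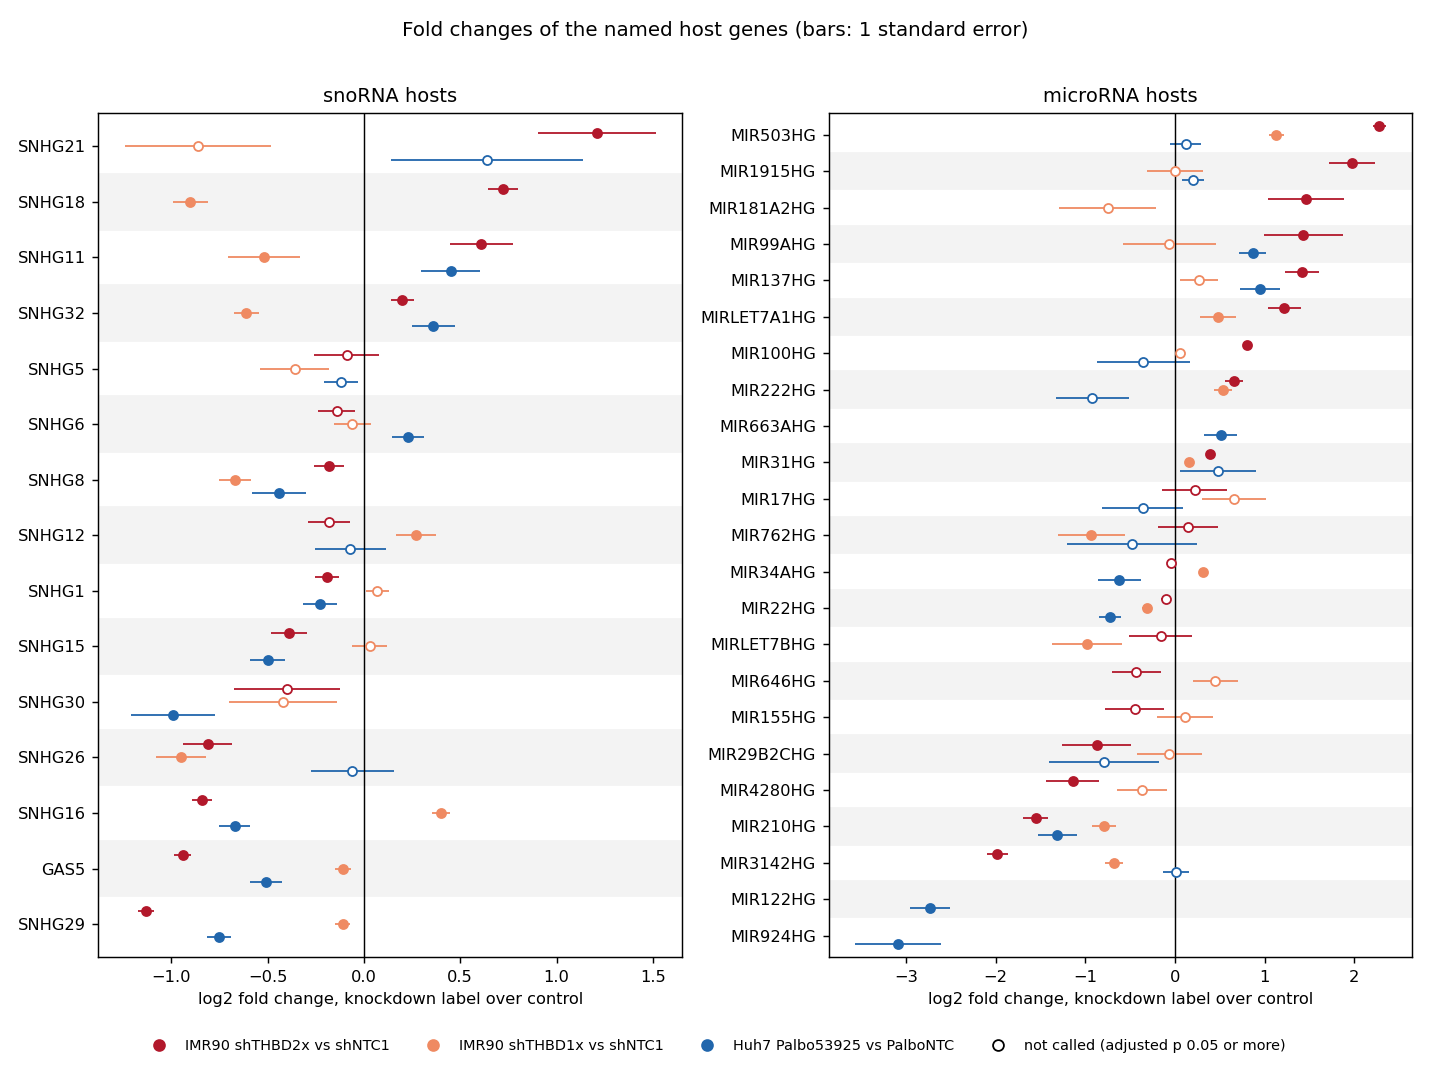
Log2 fold changes of the 38 named host genes over the control of their line, with snoRNA hosts on the left and microRNA hosts on the right, bars of 1 standard error, filled points for called genes and open points for genes not called. SNHG29, GAS5 and SNHG16 lie left of 0 in shTHBD2x and in Palbo53925, MIR210HG lies left of 0 in all 3 comparisons, and MIR503HG lies right of 0 by 2.28 and 1.13 in IMR90 cells and at 0.12 in Huh7 cells.

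In Huh7 cells 49 of the 65 members passed the filter on low counts. In Palbo53925 against PalboNTC libraries 6 were called higher and 15 lower, or 42.9%, where 53.1% of 17474 genes were called, 25.9% higher and 27.3% lower. The groups did not overlap for 21 members and for 58.8% of all genes. The median log2 fold change was -0.24 over 23 snoRNA hosts and -0.16 over 26 microRNA hosts, against 0.00 over all genes. Without Palbo53925 replicate 3 the counts were 6 higher and 12 lower. GAS5 had 59.5, 53.7 and 44.8 CPM in Palbo53925 libraries, against 66.7, 79.6 and 73.6 CPM in PalboNTC libraries (-0.51, SE 0.0825, adjusted p = 3.7e-06), and was at -0.43 (adjusted p = 3.2e-06) without replicate 3. SNHG29 had 90.1, 95 and 88.4 CPM in Palbo53925 libraries, against 142, 148 and 160 CPM in PalboNTC libraries (-0.75, SE 0.0628, adjusted p = 5.4e-12). SNHG16 had 35.6, 34.4 and 32.8 CPM in Palbo53925 libraries, against 51.8, 53.9 and 55 CPM in PalboNTC libraries (-0.67, SE 0.0797, adjusted p = 1e-08). All 3 hosts were lower in every Palbo53925 library than in any control. SNHG15, host of SNORA9, had 24.3, 26.7 and 24.8 CPM against 34.3, 35.1 and 36.2 CPM in PalboNTC libraries (-0.50, SE 0.0904, adjusted p = 1.7e-05). SNHG30, host of SNORD7, had 3.24, 4.52 and 2.31 CPM against 5.69, 7.49 and 6.42 CPM in PalboNTC libraries (-0.99, SE 0.219, adjusted p = 2.7e-04). SNHG1 (-0.23, adjusted p = 0.0291) and SNHG8 (-0.44, adjusted p = 0.00813) overlapped their controls and lost their calls without Palbo53925 replicate 3 (adjusted p = 0.194 and 0.0513) or PalboNTC replicate 3 (adjusted p = 0.0567 and 0.0718), and SNHG1 also without PalboNTC replicate 2 (adjusted p = 0.156), with DESeq2 (adjusted p = 0.0563) and with upper-quartile scaling (adjusted p = 0.094).

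Of the snoRNA hosts of Huh7 cells 3 were called higher, and each lost its call without at least 1 library. SNHG32 had 58.1, 66.3 and 45.8 CPM in Palbo53925 libraries, against 32.7, 44.1 and 53.3 CPM in PalboNTC libraries, which overlapped (0.36, SE 0.112, adjusted p = 0.00738). It lost its call with DESeq2 (adjusted p = 0.171) and without Palbo53925 replicate 2 (adjusted p = 0.0785) or PalboNTC replicate 1 (adjusted p = 0.147). SNHG11 (0.45, adjusted p = 0.0137) lost it without Palbo53925 replicate 1 (adjusted p = 0.155) or PalboNTC replicate 3 (adjusted p = 0.0658). SNHG6, host of SNORD87, had 50.6, 48.9 and 43.7 CPM in Palbo53925 libraries, against 37.8, 41.3 and 40.2 CPM in PalboNTC libraries (0.23, adjusted p = 0.0153), and lost its call without Palbo53925 replicate 1 (adjusted p = 0.0763) or PalboNTC replicate 1 (adjusted p = 0.0867).

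The microRNA hosts of Huh7 cells were led by falls. MIR122HG (chr18:58445788-58453766, plus strand), host of the liver microRNA miR-122, had 1.91, 1.35 and 1.07 CPM in Palbo53925 libraries, against 9.2, 10 and 9.05 CPM in PalboNTC libraries. Every control was several times the highest Palbo53925 library, with a log2 fold change of -2.73 (SE 0.22, adjusted p = 2e-12). In the same libraries 14 of the 15 hepatocyte markers were lower and 1 was higher, and their sum was 7894 to 8072 CPM in Palbo53925 libraries against 10508 to 10845 CPM in PalboNTC libraries, with no marker at 0. Fibroblast markers summed to 1841 to 1895 CPM in Palbo53925 against 1179 to 1234 CPM in PalboNTC libraries, with 6 of 11 tested higher and 1 lower, and epithelial markers to 982 to 1013 CPM against 1318 to 1404 CPM. Their part in the fall of MIR122HG was not tested. MIR924HG had 0.249, 0.277 and 0.222 CPM in Palbo53925 libraries, against 2.39, 2.15 and 1.86 CPM in PalboNTC libraries (-3.09, SE 0.476, adjusted p = 1.4e-06). MIR210HG had 4.07, 4.16 and 1.87 CPM in Palbo53925 libraries, against 7.67, 7.74 and 9.26 CPM in PalboNTC libraries (-1.31, SE 0.217, adjusted p = 4.7e-06), and was at -1.05 (adjusted p = 5.1e-06) without replicate 3. MIR22HG had 21, 21.8 and 13 CPM in Palbo53925 libraries, against 32.1, 28.5 and 29.3 CPM in PalboNTC libraries (-0.72, SE 0.124, adjusted p = 8.6e-06). Both MIR210HG and MIR22HG were lowest in replicate 3 and lower than every control in each Palbo53925 library. MIR34AHG (-0.62, adjusted p = 0.0276) lost its call without any of 4 libraries, Palbo53925 replicates 2 and 3 and PalboNTC replicates 2 and 3 (adjusted p = 0.0593 to 0.12).

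The microRNA hosts called higher in Huh7 cells were MIR99AHG, MIR137HG and MIR663AHG. MIR99AHG had 12.4, 11.3 and 13.8 CPM in Palbo53925 libraries, against 6.05, 6.54 and 7.61 CPM in PalboNTC libraries (0.87, SE 0.151, adjusted p = 1.1e-05). MIR137HG had 5.1, 4.91 and 4.94 CPM in Palbo53925 libraries, against 2.85, 2.2 and 2.54 CPM in PalboNTC libraries (0.95, SE 0.228, adjusted p = 6.6e-04). MIR663AHG had 6.85, 7.21 and 7.12 CPM in Palbo53925 libraries, against 4.88, 5.24 and 4.4 CPM in PalboNTC libraries (0.51, SE 0.18, adjusted p = 0.0161), and lost its call without PalboNTC replicate 3 (adjusted p = 0.0721). All 3 were separate from their controls. The paralog MIR100HG, at 0.489 to 0.753 CPM in Palbo53925 and 0.673 to 0.799 CPM in PalboNTC libraries, was not called (-0.35, SE 0.521, adjusted p = 0.597).

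**Figure D5:**
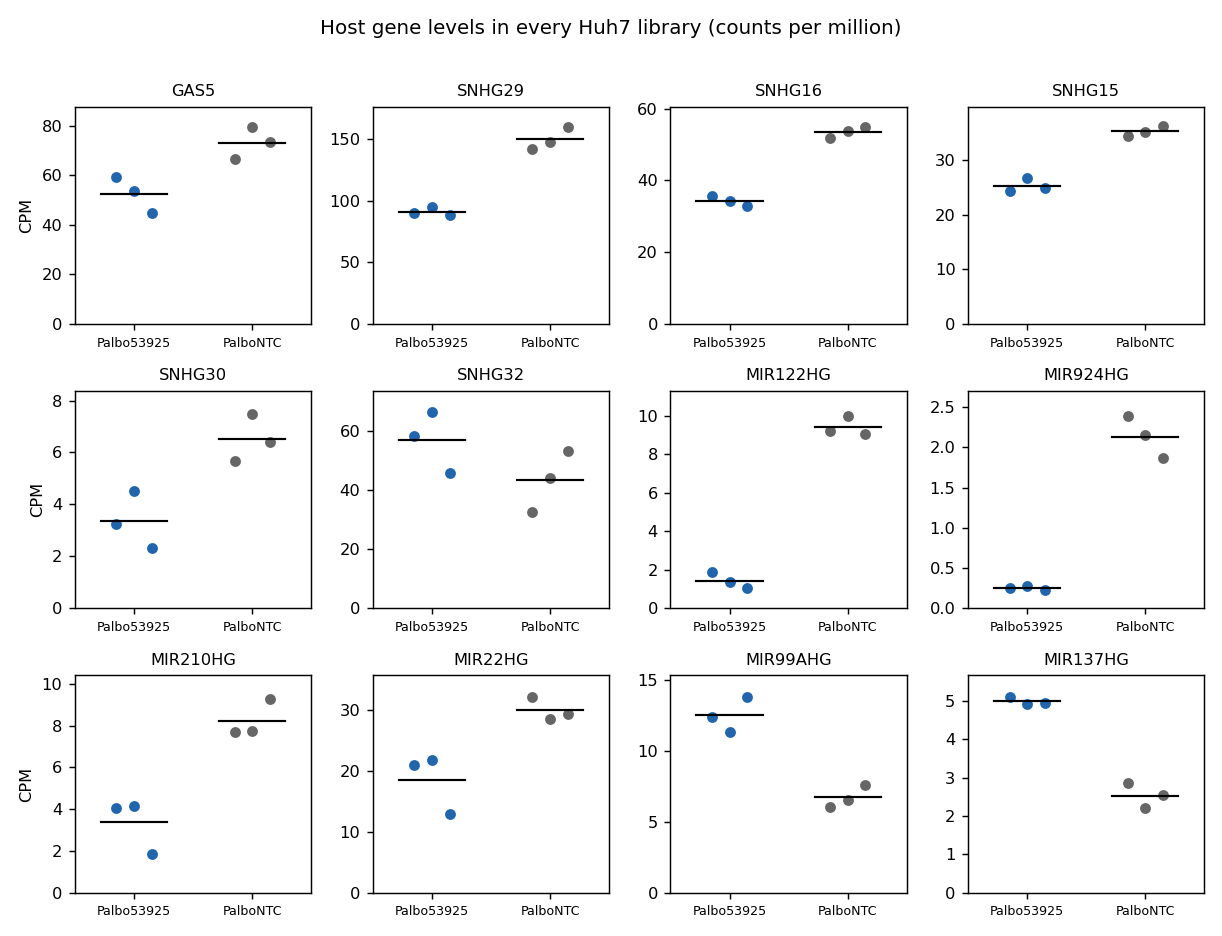
CPM of 12 host genes in each of the 6 Huh7 libraries, with points for libraries and bars for group means, each panel on its own axis from 0. MIR122HG and MIR924HG stood at 1.91 CPM or less and 0.277 CPM or less in Palbo53925 libraries, and MIR99AHG and MIR137HG were higher in every Palbo53925 library than in any PalboNTC library.

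The 2 lines share no libraries, so their calls can be counted against each other. Of the 39 members tested in both, 13 were called lower in shTHBD2x and 12 in Palbo53925 libraries, and 8 in both, namely GAS5, SNHG1, SNHG4, SNHG8, SNHG15, SNHG16, SNHG29 and MIR210HG. That is 61.5% of the shTHBD2x calls and 66.7% of the Palbo53925 calls, where over all 12645 genes tested in both lines the shares were 51.3% and 60%. Higher in both were 4 of 13 shTHBD2x calls (30.8%) and of 5 Palbo53925 calls (80%), namely MIR99AHG, MIR137HG, SNHG11 and SNHG32, where the shares over all genes were 47.2% and 57.6%. The member counts are too small to tell these shares from those of all genes. SNHG3, host of SNORA73A and SNORA73B, was the 1 member called in opposite directions, and was named after its values were seen. It had 51.8, 46.3 and 49.4 CPM in shTHBD2x against 33.1, 31.6 and 30.2 CPM in shNTC1 libraries (0.55, SE 0.0619), and 15.7, 17.8 and 12.1 CPM in Palbo53925 against 20.6, 20.9 and 19.2 CPM in PalboNTC libraries (-0.44, SE 0.121).

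Whether the shTHBD2x effect differed from the Palbo53925 effect was tested in 1 fit over all 15 libraries. Of 47 members tested, 7 had a higher and 5 a lower effect in shTHBD2x, or 25.5%, where 44% of 16682 genes did, 21.2% higher and 22.8% lower. The largest called differences were those of MIR503HG (2.12, SE 0.18, adjusted p = 1.2e-12), MIR3142HG (-2.02, SE 0.188, adjusted p = 1.4e-11) and MIR1915HG (1.75, SE 0.26, adjusted p = 4.8e-07). In Huh7 cells MIR3142HG had 13.6, 11.9 and 8.85 CPM in Palbo53925 libraries, against 10, 11.7 and 11.6 CPM in PalboNTC libraries, which overlapped (0.01, SE 0.146, adjusted p = 0.945). MIR503HG had 9.75, 13.8 and 7.52 CPM in Palbo53925 libraries, against 10.4, 9.59 and 7.86 CPM in PalboNTC libraries, which also overlapped. For MIR210HG (-0.27, SE 0.262, adjusted p = 0.449), SNHG16 (-0.19, SE 0.0868, adjusted p = 0.0748) and MIR137HG (0.44, SE 0.284, adjusted p = 0.217) no difference between the effects was called, although SNHG16 passed without shNTC1 replicate 2 (-0.23, adjusted p = 0.0455). SNHG3 differed by 0.97 (SE 0.127, adjusted p = 4.4e-08).

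The small RNA genes inside the hosts have rows of their own, and those rows were nearly empty. In IMR90 cells 48 of 63 such rows inside microRNA hosts and 116 of 126 inside snoRNA hosts had no count at all, and in Huh7 cells 54 of 64 rows inside microRNA hosts and 121 of 128 inside snoRNA hosts had none. SNHG14 alone held 83 of the rows inside snoRNA hosts in each line, and no such row was found inside GAS5. Exons here are those of any annotated transcript of the host, so a base that is intron in a spliced transcript can count as exon. For SNHG1 and SNHG15 such exons cover the whole gene. Host counts over such bases need not come from spliced RNA. By this definition 29 of the 63 rows inside microRNA hosts and 66 of the 126 inside snoRNA hosts in IMR90 cells lay wholly within exons of the host. A read touching both genes there was left uncounted under the counting options in the file header. The fullest microRNA row was MIR221, in an intron of MIR222HG, with 20, 22 and 23 counts in shTHBD2x libraries and 30, 44 and 35 counts in the libraries labelled shTHBD1x, against 18, 23 and 25 counts in shNTC1 libraries. Only the libraries labelled shTHBD1x lay above the controls. MIR210 had 1, 6 and 3 counts in shTHBD2x libraries and 14, 9 and 8 counts in the libraries labelled shTHBD1x, against 13, 5 and 13 counts in shNTC1 libraries, and 1, 0 and 1 counts in Palbo53925 against 1, 8 and 4 counts in PalboNTC libraries. The shTHBD2x and shNTC1 values overlapped, and the Huh7 groups met at 1 count. MIR503 had 11 counts in shTHBD2x libraries together, 11 in those labelled shTHBD1x and 3 in shNTC1 libraries. SNORA73B, in an intron of SNHG3, had 27, 52 and 33 counts in shTHBD2x libraries, against 29, 42 and 61 counts in shNTC1 libraries. Such counts come from a library of longer RNA fragments and give no level of the mature small RNAs.

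The proteins that bind, process or degrade these RNAs were followed in 3 lists, whose counts of called genes stand beside 67.3% of all genes called in shTHBD2x libraries, 53.8% in the libraries labelled shTHBD1x and 53.1% in Palbo53925 libraries. Of 18 snoRNP core and assembly genes tested, 3 were higher and 7 lower in shTHBD2x libraries, 9 higher and 2 lower in the libraries labelled shTHBD1x, and 1 higher and 10 lower in Palbo53925 libraries, with medians of -0.08, 0.14 and -0.25 log2 against 0.01, -0.00 and 0.00 over all genes. NOP10, a subunit of every H/ACA particle, averaged 23.9 ± 1.58 CPM in shTHBD2x libraries and 130 ± 4.56 CPM in the libraries labelled shTHBD1x, against 111 ± 2.04 CPM in shNTC1 libraries, and 7.19 ± 0.777 CPM in Palbo53925 against 52.7 ± 4.22 CPM in PalboNTC libraries (SD, n = 3 each). Its log2 fold changes were -2.30 (SE 0.0497), 0.29 (SE 0.0393) and -2.90 (SE 0.107). NOP58, of the C/D particle, rose by 0.41 in shTHBD2x libraries (SE 0.0446, adjusted p = 9.5e-13). Of 16 nonsense-mediated decay genes, 4 were higher and 9 lower in shTHBD2x libraries, 4 higher and 2 lower in those labelled shTHBD1x, and 5 higher and 5 lower in Palbo53925 libraries, with medians of -0.13, -0.01 and 0.06. Of the microRNA processing and effector genes, 7 of 19 were higher and 6 lower in shTHBD2x libraries, 8 higher and 4 lower in those labelled shTHBD1x, and 8 of 20 higher and 4 lower in Palbo53925 libraries, with medians of 0.01, 0.10 and 0.10. AGO2, the slicing Argonaute, averaged 53.5 ± 3.97 CPM in shTHBD2x libraries, against 124 ± 2.89 CPM in shNTC1 libraries (-1.30, SE 0.043, adjusted p = 2.4e-39). In the libraries labelled shTHBD1x AGO2 averaged 156 ± 5.68 CPM. DDX5 was higher in shTHBD2x than in shNTC1 libraries (0.54, SE 0.0217, adjusted p = 1.5e-34). In Huh7 cells AGO1 averaged 49.6 ± 2 CPM in Palbo53925 libraries, against 99.5 ± 7.88 CPM in PalboNTC libraries (-1.03, SE 0.0732, adjusted p = 8.8e-14). TNRC6B went the other way, with 60.3 ± 6.38 CPM in Palbo53925 against 26.1 ± 2.55 CPM in PalboNTC libraries (1.18, SE 0.0958, adjusted p = 2.2e-12).

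Genes of other names that also carry snoRNAs or microRNAs gave a comparison outside the naming rule, against the same shares of all genes called, 67.3%, 53.8% and 53.1% in the same order. Of 36 mostly ribosomal protein and translation factor genes that carry snoRNAs, 14 were higher and 14 lower in shTHBD2x libraries, 21 higher and 6 lower in those labelled shTHBD1x, and 8 higher and 17 lower in Palbo53925 libraries, with medians of -0.00, 0.10 and -0.14. RPL13A, a ribosomal protein gene with several C/D snoRNAs in its introns, averaged 651 ± 30.6 CPM in shTHBD2x libraries, against 1398 ± 12.5 CPM in shNTC1 libraries (-1.19, SE 0.022, adjusted p = 4.5e-55). In the libraries labelled shTHBD1x it averaged 1343 ± 3.86 CPM. In Huh7 cells it averaged 349 ± 11.6 CPM in Palbo53925 libraries, against 776 ± 35.4 CPM in PalboNTC libraries (-1.18, SE 0.0529, adjusted p = 7.1e-19). Higher in the same list were RPL10 in shTHBD2x libraries (0.33, SE 0.0216, adjusted p = 7.6e-23) and TCP1 in Palbo53925 libraries (0.43, SE 0.0545, adjusted p = 3.9e-08). Of 34 other microRNA hosts, 32 were tested in IMR90 cells, with 16 higher and 13 lower in shTHBD2x libraries and 15 higher and 10 lower in those labelled shTHBD1x, and 12 of 34 were higher and 11 lower in Palbo53925 libraries, with medians of 0.16, 0.12 and 0.02. SLIT2, host of miR-218-1 and a secreted guidance cue, averaged 57.8 ± 1.98 CPM in shTHBD2x libraries, against 7.39 ± 0.355 CPM in shNTC1 libraries (2.88, SE 0.0864, adjusted p = 5.2e-42). In Huh7 cells it averaged 136 ± 9.45 CPM in Palbo53925 libraries, against 48 ± 1.27 CPM in PalboNTC libraries (1.47, SE 0.072, adjusted p = 7.1e-18).

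Exon sharing limits some members. IMR90 reads were counted without strand, so those of a host and of an antisense gene over the same bases cannot be told apart. Reads over exons of both genes were left uncounted. The counting options for Huh7 cells are not known. The share of exon bases also covered by other genes was 72.9% for SNHG21, 39.6% for SNHG8, 36.4% for SNHG6, 34.3% for MIRLET7A1HG, 33.4% for SNHG16, 32.9% for MIR762HG and 29.1% for SNHG32 in the IMR90 table, and 9.98% for SNHG29 and 6.03% for GAS5. It was 11.5% for SNHG14, with UBE3A on the opposite strand among the sharers. For MIR137HG it was 8.73%, with DPYD on the same strand among them. The part of UBE3A and DPYD transcripts in these counts was not tested. SNHG5, host of SNORD50B, had 4.68 ± 0.625 CPM in shTHBD2x libraries and 4.74 ± 0.965 CPM in shNTC1 libraries, and 46.6 ± 6.98 CPM in Palbo53925 and 49.6 ± 4.72 CPM in PalboNTC libraries (SD, n = 3 each). Its exons summed to 12604 bases in the IMR90 table and 8414 in the Huh7 table, so its level is not comparable between the lines.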

How the data were processed

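Total RNA of 15 libraries was sequenced. The deposited values are raw counts per gene, made by the authors with fastp, STAR and featureCounts on GRCh38, per the submitters' processing notes. For the IMR90 table the file header gives featureCounts v2.0.1 and GENCODE 38, with fragments counted over exons by gene name, chimeric fragments left out and no strand, multi-mapping or multi-overlap option. For Huh7 cells the sources used here name neither a counting version nor an annotation.

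Counts were tested with edgeR 4.0.16 in R 4.3.3, by the quasi-likelihood test after filterByExpr and TMM scaling. All 9 IMR90 libraries entered 1 fit, the 6 Huh7 libraries another, and all 15 a joint fit for the difference between lines. P-values were adjusted by Benjamini-Hochberg over all genes tested, and a gene was called under 0.05. The standard error is the log2 fold change over the root of the F statistic, an approximation. Scripts were tested on simulated data. CPM used the total count of a library, and per-kilobase levels the deposited exon length. Depth was 18256773 to 25236178 counts, and 3 counts, the limit that a count of 0 allows, cover counting error only. Alternatives were DESeq2 1.42.0 as test and as scaling, upper-quartile scaling, no filter, 2 groups only, the replicate number as a block and each library left out.

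Members and gene lists were chosen with earlier results of these data known. Members named with values were taken from 19 fixed members and, per comparison within a line, from the 6 called members with the largest and the 6 with the smallest fold change among those averaging at least 1 CPM in a group. SNHG3, SNHG4, SNHG14, SNHG19, MIR4458HG and MIR3659HG were added after their values were seen. Of each other gene list, the called gene of lowest adjusted p in each direction could be named.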

Additional observations from a re-analysis of the deposited data

Results flagged for a closer look

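For 11 members named by rule, and for SNHG3 (0.97, adjusted p = 4.4e-08), the shTHBD2x effect in IMR90 cells differed from the Palbo53925 effect in Huh7 cells, by a test of the difference of log2 fold changes over all 15 libraries in edgeR with Benjamini-Hochberg adjustment. The difference, shTHBD2x effect minus Palbo53925 effect, was 2.12 for MIR503HG, 1.75 for MIR1915HG, 1.54 for MIR222HG, 1.12 for MIR100HG, 0.59 for MIR22HG and 0.54 for MIR34AHG. It was -2.02 for MIR3142HG, -0.77 for SNHG26, -0.46 for GAS5, -0.41 for SNHG29 and -0.41 for SNHG6. GAS5 and SNHG29 were lower in the hairpin group in both lines and more so in IMR90 cells. The call of SNHG26 was lost without PalboNTC replicate 1 (adjusted p = 0.0503) and that of SNHG6 without shTHBD2x replicate 1 (adjusted p = 0.0795). MIR100HG stayed under 1 CPM in every Huh7 library. MIR222HG had 15, 37 and 20 counts in Palbo53925 libraries, against 33, 42 and 34 counts in PalboNTC libraries. Its Huh7 effect of -0.92 was not called, but passed without Palbo53925 replicate 2 (-1.29, adjusted p = 0.0158). The joint fit estimated the spread over both lines together, although the common coefficient of variation was 3.13% in the IMR90 fit and 8.2% in the Huh7 fit. The lines also differ in the inducer of senescence, the hairpin label and the count table, which cannot be told apart here.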

How the results depend on the processing

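Counts of members called higher and lower moved by at most 1.5 times under each alternative run. When each library was left out in turn, shTHBD2x against shNTC1 gave 15 to 18 higher and 12 to 16 lower, the libraries labelled shTHBD1x against shNTC1 gave 6 to 8 and 9 to 13, shTHBD1x against shTHBD2x gave 13 to 15 and 19 to 21, Palbo53925 against PalboNTC gave 4 to 6 and 12 to 17, and the difference between lines gave 7 to 9 and 4 to 6. Of 98 called results of named members, 75 kept their call under every alternative run, and 23 lost it under at least 1. Results that were not called passed the threshold 22 times. No called result changed sign, while results that were not called did so 58 times. Upper-quartile scaling moved the median log2 fold change of all genes in shTHBD1x against shTHBD2x to -0.13, from -0.03 with TMM. Replicate numbers did not pair the libraries, since same-numbered libraries had correlations of -0.0524 to 0.0225. With the replicate block the counts were 18 higher and 14 lower, 9 and 13, 14 and 21, 6 and 15, and 7 and 5, in the same order of comparisons. Members under about 1 CPM rest on few counts, and the mature small RNAs were not measured.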
